A study of Mus musculus with 11 samples.

Results

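The transcriptome of the facial processes of DKO embryos, which are homozygous for mutant alleles of both *Rspo2* and *Wnt9b*, was compared with that of wild type (wt) embryos across protein-coding genes. The comparison rests on the 3 libraries that the sample labels call r2w9bdKO (DKO here) and on the 2 that they call wt, which are 5 of the 11 libraries of the series, and the libraries of the single mutants (Rspo2KO and Wnt9bKO, 3 each) entered the model to estimate the spread. All embryos were at embryonic day 10.5 and of a mixed strain, and the tissue was the nasal processes and the maxillary and mandibular branchial arches together, so no process, and no layer of ectoderm or mesenchyme, was measured apart. The study kept an *Rspo2* null allele with an inserted reporter and selection cassette, and a form with that cassette removed. Which of these the sequenced embryos carried is not given. The labels also do not tell how many embryos went into a library or whether they were littermates. The p-values therefore measure only the spread between these libraries, part of which may be technical. Of 21263 protein-coding genes counted, 14569 passed the filter on low counts and are described.

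WNT9B is a secreted ligand that the facial ectoderm makes, and it acts on the neural crest mesenchyme below, through Frizzled receptors and LRP5 or LRP6, to stabilise beta-catenin. R-spondins such as RSPO2 are secreted amplifiers of this signal. They bind LGR receptors and the membrane ubiquitin ligases ZNRF3 and RNF43, which otherwise remove Frizzled from the cell surface. Cells that receive the signal switch on feedback genes that damp it, among them *Axin2*, *Znrf3*, *Notum* and *Dkk1*, and facial growth and lip fusion depend on the pathway.

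The 5 libraries had 11136166 to 18017344 counts, and a gene with 3 counts was at 0.268 CPM or less in each of them (CPM are counts per 1000000 counts of the library after TMM scaling). The DKO libraries correlated with each other at 0.988 to 0.991 and with the wt libraries at 0.966 to 0.974, across genes, which are not independent replicates. In small nuclear RNAs all 11 libraries fell into 2 sets that follow the *Wnt9b* label. These RNAs were at 352 and 353 CPM in the wt libraries and 386 to 420 CPM in Rspo2KO, against 70.1 to 82.7 CPM in DKO and 74.8 to 80.5 CPM in Wnt9bKO, and for these RNAs no library lay between. The mean exonic length behind a protein-coding count was 5919 and 5946 bases in wt, 5951 to 6430 bases in Rspo2KO, 6439 to 6624 bases in DKO and 6634 to 6733 bases in Wnt9bKO, and Rspo2KO 1, at 6430, lay beside the library labelled DKO 3, at 6439, so that length did not part the libraries as clearly. A difference between sets of libraries and an effect of the *Wnt9b* genotype cannot be told apart here. This holds for every difference of DKO from wt or from Rspo2KO below. *Xist*, the RNA that coats the silent X chromosome of females, was at 680 and 906 CPM in wt and at 1040 to 1469 CPM in DKO, while all single mutant libraries had under 2 CPM. *Ddx3y*, a Y-linked gene, was at 4.43 CPM in the library labelled DKO 3 and at 0.0587 to 1.07 CPM in the other wt and DKO libraries, beside 57.6 to 75.7 CPM in the single mutants.

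The genes the mice lack were examined first, because they test the labels. *Rspo2* (chromosome 15, from 43020794 to 43170826 of GRCm38) was at 14.8 and 16.0 CPM in wt and at 4.17, 3.68 and 15.5 CPM in DKO 1, DKO 2 and the library labelled DKO 3. The library labelled DKO 3 thus lay between the wt libraries and goes against its label, and it was kept under that label. The library labelled Wnt9bKO 2, at 2.86 CPM beside 22.8 and 18.1 CPM in Wnt9bKO 1 and 3, also goes against its label, and it touches the spread of the model and the comparison with Wnt9bKO. Against wt, *Rspo2* changed by -0.99 on the log2 scale (standard error, SE, 0.62, edgeR quasi-likelihood test with Benjamini-Hochberg adjustment, adjusted p = 0.262), and without the library labelled DKO 3 it was -1.98 (adjusted p = 0.0314). *Wnt9b* (chromosome 11, from 103727364 to 103749821) was at 10.8 and 13.4 CPM in wt and at 18.3, 20.2 and 19.9 CPM in DKO. Every DKO library was above both wt libraries, and the rise passed (0.68 on the log2 scale, SE 0.18, adjusted p = 0.0138), though not without wt 1 (0.53, adjusted p = 0.14). Counts over the whole *Wnt9b* gene therefore do not check the loss of *Wnt9b* in these libraries.

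**Figure D1:**
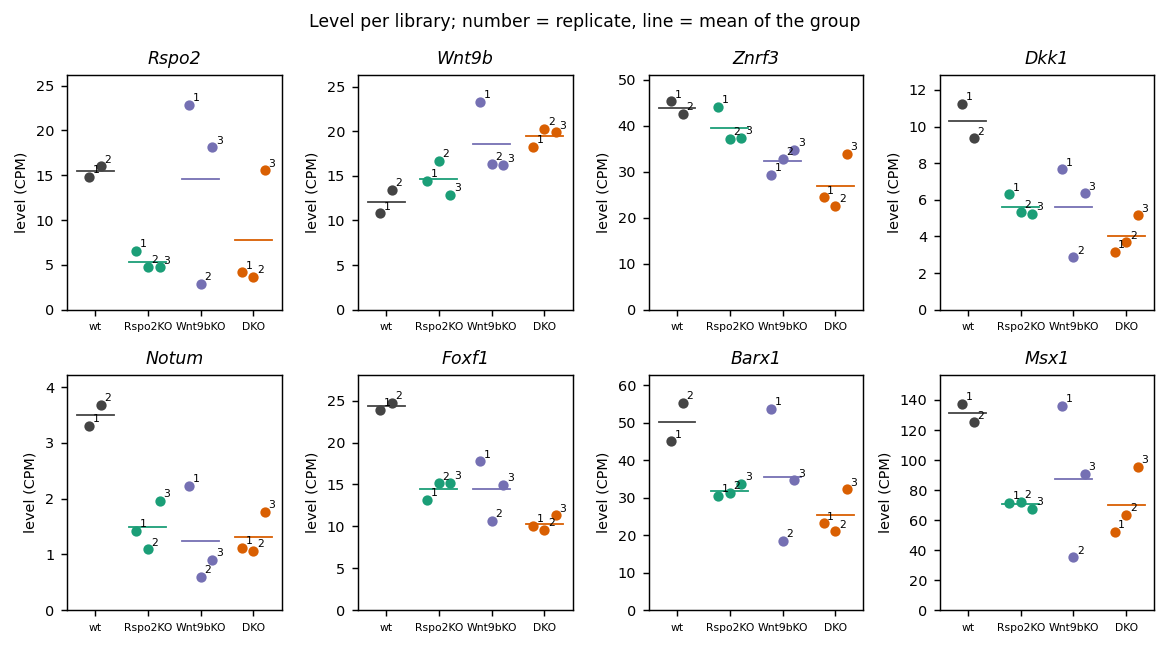
Level (CPM, vertical axes from 0) of 8 genes in each of the 11 libraries, with the replicate number beside each point and a line at the mean of each genotype. *Rspo2* of the library labelled DKO 3 sits with wt at 15.5 CPM, and all DKO libraries lie below both wt libraries for *Znrf3*, *Dkk1*, *Notum*, *Foxf1*, *Barx1* and *Msx1*.

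Of the 14569 protein-coding genes, 2441 (16.8%) differed between DKO and wt at an adjusted p below 0.05 and by more than 1.5-fold. More were higher in DKO (1444, 9.91%) than lower (997, 6.84%). In 2435 of the 2441 the DKO and wt libraries did not overlap. The rule for a call favours such genes, so this adds no support to the calls. The share over all tested genes is not given here. The study's methods name DESeq2 and a p below 0.05, and do not say whether that p was adjusted. At an unadjusted p below 0.05 in the edgeR test, 2840 genes (19.5%) passed here. Of the 2441, 781 differed by more than 2-fold, of which 526 were higher. The median log2 fold change over all 14569 genes was -0.0029, so that the counts stand relative to a centre near 0. Without the library labelled DKO 3, 1372 genes were higher and 1127 lower, and without wt 1, the shallowest library, 839 were higher and 798 lower.

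The direction of a gene went with its length. Among the quintile of genes with the shortest exonic length, up to 2510 bases, 5.25% were higher and 15.3% lower in DKO (median log2 fold change -0.21). Among the longest quintile, from 7674 bases, 17.7% were higher and 1.24% lower (median 0.21). GC content went with the direction less steeply, with medians from 0.05 in the lowest quintile to -0.08 in the highest. With an offset for length and GC content in the model, 1258 genes were higher and 905 lower.

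**Figure D2:**
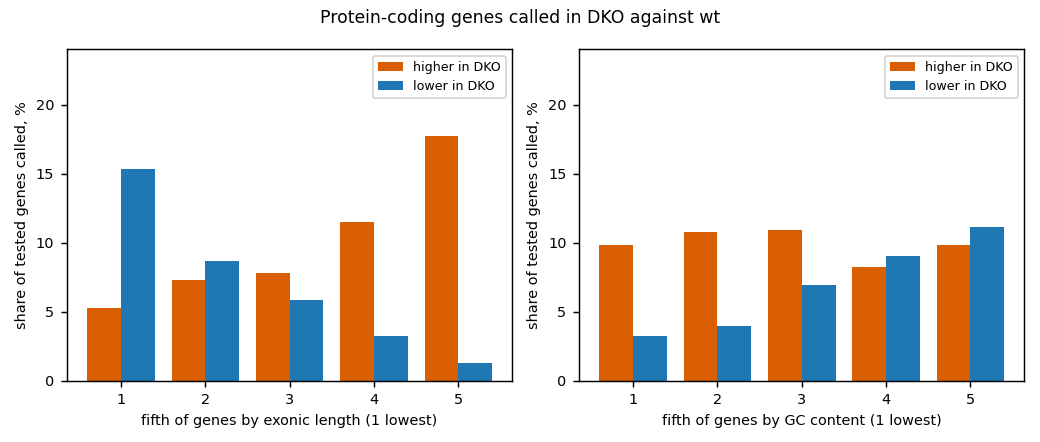
Share of tested protein-coding genes called higher (orange) or lower (blue) in DKO against wt, in percent, by quintile of exonic length (left) and of GC content (right), with 1 the lowest. The share called lower drops from 15.3% in the shortest quintile to 1.24% in the longest, while the share called higher grows from 5.25% to 17.7%.

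With both directions pooled, feedback genes of the WNT pathway were called about as often as genes in general, and those called were lower. By direction, 6.84% of all genes fell and 9.91% rose. Of 19 WNT target and feedback genes tested, 3 fell and 0 rose in the edgeR test (15.8% of the list, beside 16.8% of all genes), with a list median of -0.18 on the log2 scale. DESeq2 gave the same counts, 4 fell and 1 rose at an unadjusted p below 0.05, and without the library labelled DKO 3 there were 4 that fell and 1 that rose. With only the DKO and wt libraries in the fit 5 fell and 0 rose. Without the libraries labelled DKO 3 and Wnt9bKO 2, an alternative chosen after seeing the data, 6 fell and 1 rose. With the length and GC offset, and with the replicate number as a block, 3 fell and 1 rose, and without wt 1 it was 1 and 1. *Znrf3*, the ligase that R-spondins hold back, was at 45.4 and 42.6 CPM in wt and at 24.4, 22.7 and 33.9 CPM in DKO. It fell by 0.70 on the log2 scale (SE 0.15, adjusted p = 0.00432), and the library labelled DKO 3 was the highest of the 3. *Dkk1*, which encodes a secreted inhibitor of LRP5 and LRP6, was at 11.3 and 9.36 CPM in wt and at 3.17, 3.68 and 5.16 CPM in DKO, and it fell by 1.36 (SE 0.31, adjusted p = 0.00513). *Notum*, whose product strips the lipid from WNT ligands, was at 3.31 and 3.69 CPM in wt and at 1.12, 1.06 and 1.76 CPM in DKO, and it fell by 1.41 (SE 0.41, adjusted p = 0.0203). The DKO and wt libraries did not overlap for these 3 genes. Without wt 1 none of the 3 passed, with adjusted p of 0.0514 for *Znrf3*, 0.0541 for *Dkk1* and 0.0713 for *Notum*, and *Notum* did not pass without wt 2, DKO 1 or DKO 2 either.

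*Axin2*, a scaffold of the complex that degrades beta-catenin and the usual readout of the pathway, did not go with them. It was at 55.0 and 53.04 CPM in wt and at 49.6, 48.0 and 68.3 CPM in DKO, a change of 0.03 on the log2 scale (SE 0.21, adjusted p = 0.923). The wt values lay inside the range of the DKO values. Leaving out the library labelled DKO 3 turned the value to -0.15 (adjusted p = 0.651).

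The 250 bases before the RefSeq start sites of *Dkk1* (GRCm38.p6, chr19:30549497-30549746, minus strand) and *Axin2* (chr11:108920099-108920348, plus strand) are shown because the first gene fell and the second did not pass. Capitals mark CTTTGA or its reverse complement TCAAAG, the core of the motif that TCF and LEF factors bind, searched on both strands. *Dkk1* held 2 matches and *Axin2* 0, beside 13.8% of 32851 promoter windows of the same length with at least 1 match. Windows of *Znrf3* and *Notum*, which also fell, were not available, and bases outside the windows were not searched. Whether the motif bears on the change of a gene was not tested.
Dkk1: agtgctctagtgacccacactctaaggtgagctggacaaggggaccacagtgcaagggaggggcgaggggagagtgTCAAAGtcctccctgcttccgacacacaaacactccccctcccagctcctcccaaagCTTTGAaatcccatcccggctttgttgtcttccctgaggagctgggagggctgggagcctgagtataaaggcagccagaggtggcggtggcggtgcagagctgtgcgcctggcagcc
Axin2: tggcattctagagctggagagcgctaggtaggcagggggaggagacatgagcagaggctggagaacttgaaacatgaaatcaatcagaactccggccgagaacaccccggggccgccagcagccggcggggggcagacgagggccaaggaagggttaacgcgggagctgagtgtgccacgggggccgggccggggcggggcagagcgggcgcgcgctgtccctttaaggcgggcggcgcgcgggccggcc

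Upstream in the pathway, of 19 WNT ligands tested 1 rose and 0 fell in the edgeR test and at an unadjusted p below 0.05, and DESeq2, which tested 18, gave the same counts. Over all genes 9.91% rose and 6.84% fell, and with the length and GC offset 2 of the ligands rose and 1 fell. The ligand that rose was *Wnt8b*, at 0.893 and 1.39 CPM in wt and at 2.94, 5.29 and 7.22 CPM in DKO (log2 fold change 2.13, adjusted p = 0.0383), a call lost when wt 1, wt 2, DKO 2 or the library labelled DKO 3 was left out. *Wnt3*, a ligand of the facial ectoderm, was at 6.07 and 6.10 CPM in wt and at 3.82, 5.85 and 7.83 CPM in DKO and did not pass (adjusted p = 0.91). *Rspo3*, the family member most like *Rspo2* in function, was at 6.34 and 6.22 CPM in wt and at 9.75, 8.47 and 10.1 CPM in DKO, a rise of 0.59 (SE 0.20, adjusted p = 0.0413), and it did not pass without the library labelled DKO 3 (adjusted p = 0.1), wt 1, wt 2 or DKO 1. The receptors *Lgr4* (log2 fold change -0.18, adjusted p = 0.225), *Lgr5* (-0.32, adjusted p = 0.436) and *Lgr6* (-0.79, adjusted p = 0.238) and the ligase *Rnf43* (0.37, adjusted p = 0.313) did not pass.

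Of 21 WNT receptors and co-receptors tested, planar polarity genes among them, 6 rose and 1 fell, beside 9.91% and 6.84% of all genes. With the length and GC offset it was 4 and 1, and with that offset and the replicate block 2 and 1. Without the library labelled DKO 3 it was 4 and 1, without wt 1 4 and 0, and without wt 2 it was 3 and 1. *Vangl2*, a core gene of planar cell polarity, was at 44.6 and 45.2 CPM in wt and at 94.7, 102 and 91.4 CPM in DKO (log2 fold change 1.098, SE 0.15, adjusted p = 0.000203). *Lrp6*, the co-receptor, was at 128 and 152 CPM in wt and at 256, 252 and 231 CPM in DKO (0.81, adjusted p = 0.000582), and *Celsr3* rose by 1.08 (adjusted p = 0.00487). The others that rose, named after their values were seen, were *Vangl1*, *Celsr1* and *Celsr2*, and the 1 that fell was *Fzd10*, at 40.2 and 36.6 CPM in wt and at 15.6, 21.1 and 29.3 CPM in DKO. All DKO libraries lay above wt for the 6 and below wt for *Fzd10*.

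Of 17 secreted antagonists tested 2 rose and 2 fell, beside 9.91% and 6.84% of all genes. Without DKO 1 or without DKO 2 it was 2 and 1. *Sfrp2* rose from 17.3 and 20.8 CPM to 36.8, 38.1 and 37.5 CPM (log2 fold change 0.97, adjusted p = 0.000527) and *Sfrp1* from 111 and 113 CPM to 173, 210 and 183 CPM (0.75, adjusted p = 0.00393), while *Dkk1* and *Notum*, given above, fell. SFRP proteins bind WNT ligands outside the cell. Among 32 genes of the destruction complex and the beta-catenin effectors, 4 rose and 2 fell, beside 9.91% and 6.84% of all genes. *Gsk3b*, the kinase that marks beta-catenin for degradation, was at 94.6 and 109 CPM in wt and at 279, 270 and 271 CPM in DKO (1.42, SE 0.17, adjusted p = 6.26e-05). The casein kinase genes *Csnk1d* (-0.65, adjusted p = 0.000191) and *Csnk1g2* (-0.75, adjusted p = 0.00028) fell.

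Transcription factors of the facial mesenchyme were called about as often as genes in general, and in both directions. Of 42 tested, 4 rose and 4 fell (19% called, beside 16.8% of all genes), without wt 1 it was 3 and 1 and without wt 2 it was 2 and 1. Leaving out DKO 1 or DKO 2 left 3 or 4 that rose and 1 that fell. *Foxf1*, a hedgehog-responsive forkhead factor of the mesenchyme, was at 23.9 and 24.8 CPM in wt and at 10.04, 9.59 and 11.3 CPM in DKO, and it fell by 1.24 (SE 0.18, adjusted p = 0.000228). No DKO library reached the lower wt value, and the library labelled DKO 3 was close to the other two. *Lhx8*, *Prrx2* and *Tbx2*, named after their values were seen, also fell, by 0.90, 0.61 and 0.86 (adjusted p of 0.0297, 0.0449 and 0.0454). *Zeb1*, a repressor of epithelial genes, was at 60.3 and 66.9 CPM in wt and at 123, 121 and 137 CPM in DKO (log2 fold change 0.99, adjusted p = 0.000151), and *Tfap2b*, a neural crest factor, rose by 0.72 (adjusted p = 0.00105). *Foxd1*, named after its values were seen, rose by 0.63 (adjusted p = 0.00277).

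Of 17 genes of endothelin signalling and mandibular patterning, 2 fell and 0 rose in the edgeR test (beside 6.84% and 9.91% of all genes), DESeq2 gave 2 and 1, and an unadjusted p below 0.05 gave 2 and 2. The direction of this list rested on the setting, with 1 that fell and 2 that rose under the length and GC offset or with only protein-coding genes in the fit, 1 and 1 with upper-quartile factors, 0 and 1 without wt 2 and 0 and 0 without DKO 1. *Barx1*, a homeobox gene of the molar region and jaw mesenchyme, was at 45.0 and 55.2 CPM in wt and at 23.1, 21.1 and 32.2 CPM in DKO, and it fell by 0.98 (SE 0.29, adjusted p = 0.0233), a call that was lost without wt 1 (adjusted p = 0.061), wt 2, DKO 1 or DKO 2. *Gna11*, the G protein subunit downstream of the endothelin receptor, fell by 0.59 (adjusted p = 0.000464). *Edn1*, the ligand, was at 1.16 and 0.544 CPM in wt and at 2.17, 1.68 and 1.34 CPM in DKO and missed the threshold (1.09, adjusted p = 0.0538). It passed in some alternatives and missed in others. Without the library labelled DKO 3 it passed (1.24, adjusted p = 0.0452), as it did with the replicate block (1.21, adjusted p = 0.0342). *Msx1*, a homeobox gene of the outgrowing mesenchyme, was at 137 and 125 CPM in wt and at 52.1, 63.4 and 95.4 CPM in DKO. All DKO libraries were below wt, yet the spread was wide and the test was not passed (-0.90, SE 0.36, adjusted p = 0.0762); without the library labelled DKO 3 it was passed (-1.19, adjusted p = 0.0397). *Msx2* (-0.29, adjusted p = 0.545) and *Bmp4* (0.11, adjusted p = 0.756) did not pass.

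Among the other signalling pathways, of 21 Notch genes 6 rose and 0 fell in the edgeR test, as by DESeq2 and at an unadjusted p below 0.05 (median 0.34), beside 9.91% and 6.84% of all genes, and without wt 1 or wt 2 it was 3 and 0. *Lfng*, a glycosyltransferase that modifies Notch, rose from 8.93 and 10.6 CPM to 21.7, 26.2 and 22.8 CPM (1.26, SE 0.18, adjusted p = 0.000192), and *Hes1*, a Notch target, from 18.9 and 21.1 CPM to 36.4, 39.7 and 32.4 CPM (0.85, adjusted p = 0.001). Of 14 hedgehog genes 4 rose and 0 fell in the edgeR test, as by DESeq2 and at an unadjusted p below 0.05 (median 0.29), with the length and GC offset and the replicate block it was 2 and 0, and without wt 1 it was 1 and 0. *Ptch1*, the receptor and a target of the pathway, was at 47.1 and 60.8 CPM in wt and at 90.6, 92.2 and 86.6 CPM in DKO (0.73, adjusted p = 0.00687, a call lost without wt 1), and *Disp1*, which releases the ligand, rose by 0.67 (adjusted p = 0.00338).

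The FGF, BMP and retinoic acid lists stand beside 9.91% higher and 6.84% lower of all genes. Of 16 FGF ligands and receptors 2 rose, *Fgf15* (1.54, adjusted p = 0.0155) and *Fgfbp3* (0.76, adjusted p = 0.0222), and neither passed without wt 1 or without wt 2. *Fgf8*, the ectodermal ligand that drives facial outgrowth, was at 10.9 and 7.49 CPM in wt and at 6.11, 6.98 and 11.1 CPM in DKO (-0.18, adjusted p = 0.644), and *Fgf10* was at 8.22 and 9.36 CPM in wt and at 8.63, 9.59 and 8.01 CPM in DKO (-0.01, adjusted p = 0.973). The libraries overlapped for both genes. Of 29 BMP genes, *Id4* rose by 0.93 (adjusted p = 0.00421) and *Id3* and *Bambi* fell by 0.61 (adjusted p = 0.0101) and 0.66 (adjusted p = 0.0169), neither of which passed without wt 1 or without wt 2. Of 17 retinoic acid genes, *Crabp2*, which binds retinoic acid in the cell, fell by 0.64 (adjusted p = 0.00814, lost without wt 2) and the receptor gene *Rara* rose by 0.79 (adjusted p = 0.00319).

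The largest rises included genes of several functions. *Taf13*, a subunit of the general factor TFIID, was at 6.43 and 5.86 CPM in wt and at 25.3, 29.9 and 31.4 CPM in DKO (log2 fold change 2.24, SE 0.18, adjusted p = 1.74e-06). *Gopc*, a Golgi PDZ protein gene, was at 6.43 and 7.43 CPM in wt and at 33.0, 32.1 and 31.3 CPM in DKO (2.20, adjusted p = 1.63e-06). *Cpe*, which encodes a carboxypeptidase, was at 13.1 and 12.6 CPM in wt and at 53.7, 59.4 and 46.9 CPM in DKO (2.05, adjusted p = 1.09e-05). These genes were chosen for a large rise with no overlap, and their DKO libraries were close together. *Nicn1* (2.06), the tetraspanin gene *Cd9* (2.00), the endocytic adaptor gene *Dab2* (2.00), the protease inhibitor gene *Spint2* (1.97), the T-box gene *Eomes* (1.94) and the synuclein gene *Sncg* (2.57) rose as well. *Hydin*, a gene of motile cilia, was at 0.357 and 0.302 CPM in wt and at 148, 0.685 and 177 CPM in DKO, so that DKO 2 stayed near wt, and its rise was not called without wt 1 or without wt 2.

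*Hmga1b* and *Eno1b*, each a copy of another gene, had almost no reads in wt. *Hmga1b* had 0 and 1 counts in wt and 161, 371 and 153 in DKO, a ratio of 383 with an exact 95% interval of 68.6 to 15200 that covers counting error only. *Eno1b* had 0 and 2 counts in wt and 160, 419 and 255 in DKO (ratio 233, interval 64.4 to 1930). *Hmga1b* (chromosome 11, from 120762794 to 120764419, plus strand) lies apart from *Hmga1* (chromosome 17, from 27556497 to 27563674, plus strand), and 89% of its 50-base windows, the length of the reads, also occur in *Hmga1*. *Hmga1*, named after its values were seen, was at 77.2 and 75.8 CPM in wt and at 92.0, 85.2 and 104 CPM in DKO and did not pass (0.29, adjusted p = 0.159). The first 90 coding bases are printed because they show the overlap, with 0 differences between the genes, so a read from this stretch could come from either, and the level of *Hmga1b* is uncertain.
Hmga1b: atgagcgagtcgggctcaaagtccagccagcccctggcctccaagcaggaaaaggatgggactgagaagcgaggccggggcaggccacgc
Hmga1: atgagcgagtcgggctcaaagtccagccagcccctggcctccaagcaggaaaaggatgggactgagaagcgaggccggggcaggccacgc

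*Rps16*, a ribosomal protein gene, was at 6.61 and 5.01 CPM in wt and at 115, 144 and 155 CPM in DKO (4.59, SE 0.28, adjusted p = 2.11e-07), and 40.1% of its windows occur in another gene. In this gene as in *Hmga1b* and *Eno1b* every Wnt9bKO library was on the side of DKO and every Rspo2KO library on that of wt. Over all genes, 343 had at least 50.2% of their windows in another gene, and 7% of these were higher and 18.1% lower, beside 9.82% and 6.36% of the 9597 genes with no shared window.

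**Figure D3:**
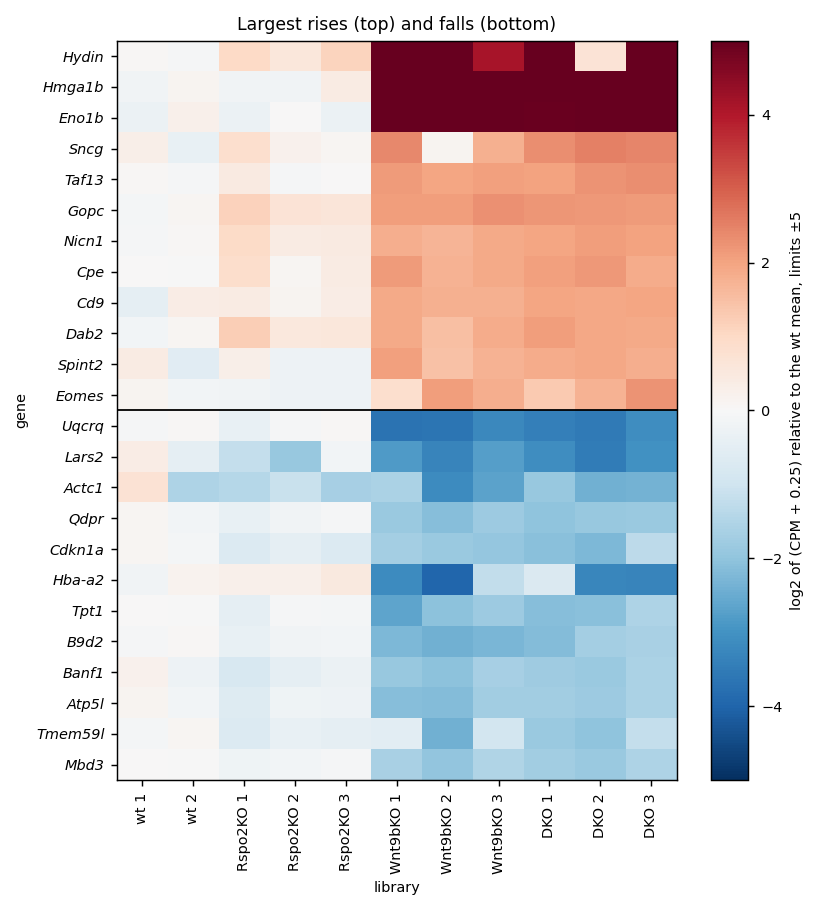
Level of the 12 genes with the largest rise (top) and the 12 with the largest fall (bottom) in each of the 11 libraries, as log2 of (CPM + 0.25) relative to the mean of the wt libraries, with red for higher, blue for lower and colours limited to 5 in either direction. For most genes the Wnt9bKO and DKO columns are alike and the Rspo2KO columns are near wt, with *Hydin* in DKO 2 and *Sncg* in the library labelled Wnt9bKO 2 near wt.

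Among the largest falls, *Uqcrq*, a subunit of respiratory complex III, was at 91.5 and 97.7 CPM in wt and at 8.69, 7.97 and 10.7 CPM in DKO, and it fell by 3.37 on the log2 scale (SE 0.16, adjusted p = 3.15e-08). *Tpt1*, the translationally controlled tumour protein gene, was at 929 and 904 CPM in wt and at 209, 213 and 313 CPM in DKO (fell by 1.90, adjusted p = 3.29e-05). *Cdkn1a*, the cell cycle inhibitor p21, was at 11.1 and 9.79 CPM in wt and at 2.23, 1.99 and 4.01 CPM in DKO (fell by 1.92, adjusted p = 8.74e-05). Only genes with no overlap between the groups could enter the largest falls. *Mbd3*, a subunit of the NuRD complex, fell by 1.71 (adjusted p = 1.32e-06), *Qdpr* by 1.93, *B9d2* by 1.90, *Banf1* by 1.74, *Atp5l* by 1.72 and *Tmem59l* by 1.71. *Lars2*, the mitochondrial leucyl-tRNA synthetase gene, fell by 3.21, with wt libraries at 463 and 262 CPM and DKO libraries at 41.4, 32.2 and 43.8 CPM.

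Lists of the translation and respiration machinery had more members called lower than higher, beside 6.84% lower and 9.91% higher over all genes, while most of their members did not pass. Of 79 cytoplasmic ribosomal protein genes 33 fell and 2 rose, with a median of -0.52, and without the library labelled DKO 3 it was 48 and 1, without wt 2 it was 21 and 1. Of 93 respiratory chain genes 38 fell and 1 rose (median -0.52), led by *Uqcrq*, *Cyc1* (-1.37, adjusted p = 2.87e-06) and *Atp5l*. Of 76 mitochondrial ribosomal protein genes 15 fell and 1 rose (median -0.38), and of 38 proteasome subunits 7 fell and 2 rose (median -0.37). With the offset for length and GC content the ribosomal list had 24 that fell and 3 that rose, and the respiratory list 30 and 1. Replication-dependent histone genes, which lack poly(A) tails, fell in 30 of 54 and rose in 0 by the edgeR test (median -0.73), and *Hist2h4* fell by 2.40 (adjusted p = 7.62e-08). DESeq2 had 31 that fell and 0 that rose, and an unadjusted p below 0.05 gave 33 and 0, while without wt 2 it was 18 and 1. Histone genes share reads with each other, and their single values are uncertain.

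Of 38 DNA replication genes tested 9 fell and 2 rose (median -0.36), beside 6.84% and 9.91% of all genes, and without wt 1 it was 7 and 1. *Mcm2*, a subunit of the replicative helicase, was at 458 and 454 CPM in wt and at 223, 225 and 243 CPM in DKO (fell by 0.98, adjusted p = 4.71e-05), *Pold2*, a DNA polymerase subunit, fell by 1.47 (adjusted p = 3.75e-06), and *Rrm2* and *Cdt1*, named after their values were seen, rose. Of 40 mitosis genes 5 rose, among them *Plk1* (0.90, adjusted p = 0.000267) and *Smc4* (0.95, adjusted p = 0.000293), and 4 fell, among them *Bub3*. Of 39 apoptosis and p53 genes, *Trp53* was at 49.0 and 51.8 CPM in wt and at 99.3, 109 and 108 CPM in DKO (1.06, adjusted p = 0.000196), while its target *Cdkn1a* fell as given above, and *Casp6*, an executioner caspase gene, fell by 1.38 (adjusted p = 4.57e-05). In all 5 of the 39 rose and 3 fell, and without wt 1 it was 1 and 3. Without wt 1 the mitosis list had 3 that rose and 2 that fell. Both lists stand beside 9.91% of all genes higher and 6.84% lower.

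Lists of chromatin regulators and of the matrix had more members called higher than lower, beside 9.91% higher and 6.84% lower over all genes, and most members did not pass. Of 68 chromatin regulators 14 rose and 1 fell (median 0.33), and with the length and GC offset it was 8 and 1 (median 0.11), and without wt 1 also 8 and 1. *Brd3*, a bromodomain protein gene, rose by 1.27 (adjusted p = 0.000147), and *Hdac1*, the deacetylase, was at 134 and 113 CPM in wt and at 36.5, 35.2 and 46.3 CPM in DKO (fell by 1.65, adjusted p = 3.75e-06). Of 37 collagens and matrix genes 7 rose and 0 fell in the edgeR test, DESeq2 gave 6 and 0, and an unadjusted p below 0.05 gave 8 and 0 (median 0.39). With the length and GC offset it was 4 and 1, without wt 1 it was 3 and 0, and without wt 2 or DKO 2 it was 4 and 0. *Col18a1*, a basement membrane collagen, was at 161 and 142 CPM in wt and at 273, 296 and 260 CPM in DKO (0.87, adjusted p = 0.000151), and *Sparc*, a matrix glycoprotein gene, rose by 0.92 (adjusted p = 0.00186).

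**Figure D4:**
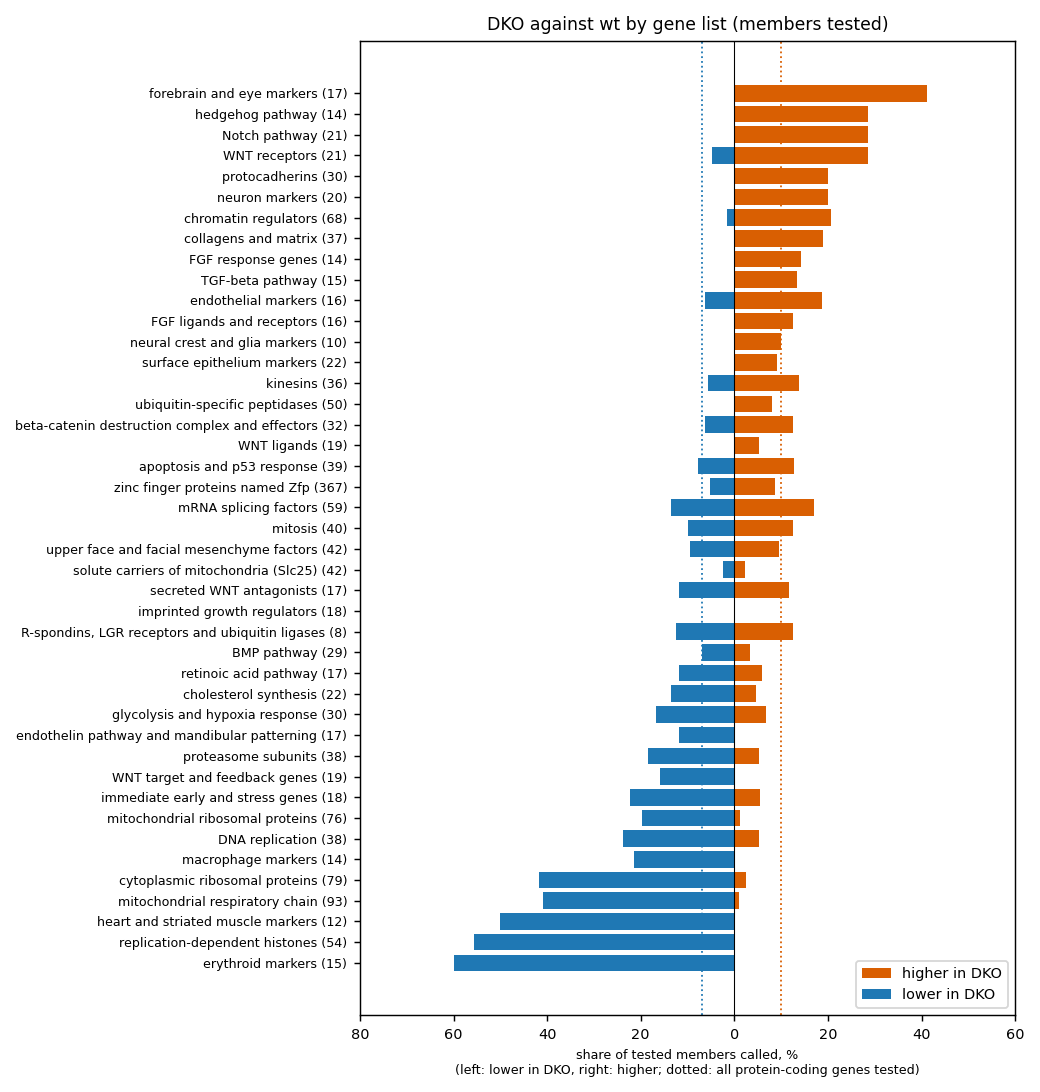
Share of the tested members of each gene list called higher (orange, to the right) or lower (blue, to the left) in DKO against wt, in percent, with the number tested in brackets and dotted lines at the shares over all protein-coding genes (9.91% and 6.84%). Erythroid markers, histones and heart and striated muscle markers reach farthest to the left, and forebrain and eye markers farthest to the right. The share of heart and striated muscle markers called lower depended on which wt library was kept.

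Markers of other cell types differed too, and in bulk tissue fewer cells of a type and less RNA per cell cannot be told apart. Of 15 erythroid markers 9 fell and 0 rose in the edgeR test, DESeq2 gave 8 and 0, and an unadjusted p below 0.05 gave 10 and 0, beside 6.84% lower and 9.91% higher of all genes. With the length and GC offset 5 fell and 0 rose. Their summed level was 4290 to 5250 CPM in wt and 2000 to 3140 CPM in DKO, and without wt 2 or DKO 2 the number that fell was 3. *Hbb-y*, an embryonic globin, was at 2230 and 2733 CPM in wt and at 1030, 871 and 1491 CPM in DKO (fell by 1.13, adjusted p = 0.00229). Forebrain and eye markers went the other way. Of 17 tested 7 rose and 0 fell in the edgeR test, by DESeq2 9 and 0 and at an unadjusted p below 0.05 10 and 0, from a summed level of 144 to 172 CPM to one of 209 to 264 CPM. *Nkx2-1*, a gene of the ventral forebrain, rose from 5.002 and 3.44 CPM to 19.2, 13.0 and 8.44 CPM (1.70, adjusted p = 0.00317), a call lost without wt 2. Without wt 2 only 1 of the 17 rose, and without wt 1 it was 3. *Pax6*, the most abundant of the list, did not pass (0.26, adjusted p = 0.494).

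Of 20 neuron markers 4 rose and 0 fell in the edgeR test, by DESeq2 3 and 0 and at an unadjusted p below 0.05 5 and 0, beside 9.91% and 6.84% of all genes. With the replicate block 1 rose, and without wt 1 none passed. Without DKO 2 or the library labelled DKO 3 only 1 rose, and without DKO 1 it was 2. *Dcx* rose by 1.19 (adjusted p = 0.00216, lost without wt 1) and *Tubb3*, the most abundant, did not pass (-0.12, adjusted p = 0.553). Heart and striated muscle markers rested on wt 1, which had 144 CPM in sum beside 38.1 CPM in wt 2 and 34.8 to 44.6 CPM in DKO. Of 12 tested 6 fell, without wt 1 it was 1 of 13 and without wt 2 it was 11 of 18. *Myl7*, an atrial myosin gene, was at 9.65 and 1.93 CPM in wt and at 0.352, 0.623 and 0.243 CPM in DKO. Surface epithelium markers overlapped in sum (411 to 436 CPM in wt, 387 to 468 CPM in DKO), and *Grhl3* rose by 1.49 (adjusted p = 0.00161). In the next lists, too, the shares over all genes are 6.84% lower and 9.91% higher. Of 14 macrophage markers 3 fell, led by *Tyrobp* (-1.78, adjusted p = 0.00105), and 1 fell when wt 1, wt 2, DKO 1 or DKO 2 was left out. Of 18 immediate early and stress genes 4 fell and 1 rose, led by the chaperone genes *Hsph1* and *Hspa8*, the latter at 1657 and 1918 CPM in wt and at 779, 1114 and 842 CPM in DKO. The part of these cell types and of the stress genes in the other differences was not tested.

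The DKO libraries were also set against each single mutant, in comparisons that share the DKO libraries with the one above. Against Wnt9bKO 18 genes (0.124%) were called, 9 in each direction, with 7 called without the library labelled DKO 3 and 17 without it and the library labelled Wnt9bKO 2, an alternative chosen after seeing the data. Against Rspo2KO 1284 genes (8.81%) were called, of which 659 were higher in DKO. As given above, *Xist* was high in every DKO library and *Ddx3y* in every single mutant library. In both comparisons genotype and the sex of the embryos therefore cannot be told apart. Rspo2KO and DKO also lie in different sets of libraries by their small nuclear RNAs, as given above. Against Rspo2KO that difference between sets cannot be told apart from genotype either. *Foxf1* was at 13.2 to 15.2 CPM in Rspo2KO and at 10.7 to 17.8 CPM in Wnt9bKO, between wt and DKO in most libraries, and its log2 fold change in DKO was -0.49 against Wnt9bKO (adjusted p = 0.544) and -0.49 against Rspo2KO (adjusted p = 0.0499, under the 1.5-fold limit). *Znrf3* was at 37.2 to 44.1 CPM in Rspo2KO and at 29.3 to 34.8 CPM in Wnt9bKO. In DKO *Znrf3* was lower than in Rspo2KO by 0.55 (adjusted p = 0.0142, also under the 1.5-fold limit). Against Wnt9bKO it did not pass (-0.26, adjusted p = 0.925). *Dkk1* did not pass against either (-0.50, adjusted p = 0.949, and -0.49, adjusted p = 0.272), with 5.24 to 6.29 CPM in Rspo2KO and 2.86 to 7.67 CPM in Wnt9bKO. The library labelled Wnt9bKO 2 gave the low end for *Dkk1*, and for *Foxf1* too, at 10.7 CPM.

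Of the 18 genes called against Wnt9bKO, 4 were Y-linked, with *Uty* at 75.8 to 88.8 CPM in Wnt9bKO and at 0.934 to 6.19 CPM in DKO. *Sycp1* and *Hoxa2* are named here after their values were seen. *Sycp1*, which encodes a protein of the meiotic synaptonemal complex, had 0 and 1 counts in wt and 86, 133 and 64 counts in DKO, a ratio of 158 with an exact 95% interval of 28.2 to 6280, and no Rspo2KO or Wnt9bKO library exceeded 0.0596 CPM. *Sycp1* was called through its reads in all DKO libraries, so it does not check the label of the library labelled DKO 3. The interval covers counting error only. *Hoxa2*, a homeobox gene of the second arch and hindbrain, was higher in DKO than in Wnt9bKO and did not pass against wt. It was at 4.73 and 5.07 CPM in wt, at 1.12, 4.98 and 4.67 CPM in DKO and at 0.358 CPM or less in Wnt9bKO.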

How the data were processed

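Total RNA of facial processes was sequenced as single-end reads. By the study's methods Cutadapt was used for trimming, STAR for alignment (GRCm38) and HTSeq-Count for counting per Ensembl gene, and the authors deposited whole-number counts without normalization. The versions of these tools are not given in the sources used here. Genotypes came from the sample titles. The study's methods give 3 samples per genotype, and the labels name 2 of wt.

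Counts of all 11 libraries were fitted in R 4.3.3 with edgeR 4.0.16 (TMM factors, filterByExpr on genotype, a mean per genotype, quasi-likelihood test, two-sided) over 17317 genes of any type, because wt has 2 libraries. The Benjamini-Hochberg adjustment ran over all of these, and genes at an adjusted p below 0.05 and more than 1.5-fold were called. DESeq2 1.42.0, which the study used, was an alternative. The model was tested on simulated data. Gene types, positions, exonic lengths and the 50-base windows shared between transcripts came from the GENCODE annotation, which holds 36723 of the 38561 genes, and promoters from RefSeq. Figures were drawn with Python 3.11.15 and matplotlib 3.10.9.

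Named genes were *Rspo2*, *Wnt9b* and the genes the study measured, the 12 largest rises and falls among called genes (mean of at least 5 CPM, no overlap, no predicted, histone or ribosomal protein genes), up to 3 called genes per list and the most abundant member of each marker list. The members and lists were chosen with earlier results of these data known. Total counts were 11136166 to 18017344, and intervals and floors cover counting error only. A few genes that these rules name are not reported here.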

Additional observations from a re-analysis of the deposited data

How the results depend on the processing

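Of 135 named genes past an adjusted p of 0.05, 0 changed direction in 2287 comparisons with an alternative. In 180 of these the adjusted p no longer passed 0.05. Most of these genes were named because they were called, and the alternatives reuse the same libraries, so a change of direction was unlikely from the start. Against wt, glmTreat with a 1.5-fold null left 424 called genes (260 higher, 164 lower, 1529 at an unadjusted p), and *Wnt9b* (0.6755) no longer passed. Leaving out each library in turn gave 1637 to 2499 called genes, 839 to 1372 higher and 798 to 1127 lower, *Rspo2* at -1.9789 to -0.6498 and *Wnt9b* at 0.5284 to 0.8446. Without the low-count filter *Rspo2* passed (-0.9716), as it did without the libraries labelled DKO 3 and Wnt9bKO 2 (-1.9781), an alternative chosen after seeing the data. Against Wnt9bKO, 65 genes were called with DESeq2, 144 without the filter, 9 with at least 10 counts in every library and 7 without the library labelled DKO 3. With the replicate number as a block (replicate block) 2664 genes were called. The deviations of the same-numbered wt and DKO libraries correlated at 0.042 and 0.023. With 2 wt libraries, whose deviations mirror each other, these values cannot show whether the numbers pair the libraries. None of the genes whose direction turned was past the threshold with all libraries. *Fgf10* turned with upper-quartile factors (0.0124), with at least 10 counts (0.0003), with only protein-coding genes in the fit (0.0264) and without the libraries labelled DKO 3 and Wnt9bKO 2 (0.0412), the last of which also turned *Axin2* (-0.1502) and *Uty* (-0.8972). The length and GC offset turned *Wnt3* (0.0542), *Tubb3* (0.0729) and *Ets1* (-0.0489), and with the block *Wnt3* (0.0056), *Tubb3* (0.0546), *Ets1* (-0.0045) and *Pax6* (-0.0089). Leaving out a library gave ranges of -0.1512 to 0.1272 for *Axin2*, -0.4843 to 0.0961 for *Fgf8*, -0.1068 to 0.0869 for *Fgf10*, -0.0384 to 0.2453 for *Bmp4*, -0.3402 to 0.1692 for *Wnt3*, -1.2394 to 0.1123 for *Lgr6*, -0.7834 to 0.331 for *Ttn* and -0.8988 to 0.8078 for *Uty*. The causes of these changes were not tested. With 2 wt libraries, leaving out either rests on the other groups' spread.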

Other observations

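Gene groups not described above are given beside 9.91% of all genes higher and 6.84% lower. Of 30 protocadherins, cell adhesion genes of the developing nervous system and face, 6 rose and 0 fell in the edgeR test and by DESeq2, with 9 and 0 at an unadjusted p below 0.05 (median 0.60 on the log2 scale), among them *Pcdh17* (0.90, adjusted p = 0.00181) and *Pcdh19* (0.93, adjusted p = 0.00296, lost without wt 1). Without wt 1 the list had 3 that rose, and without wt 2 it had 2. Of 36 kinesins 5 rose and 2 fell, with *Kif14* higher by 1.18 (adjusted p = 4.23e-05) and *Kif22* lower (-1.06, adjusted p = 9.72e-06), and both act in cell division. Of 59 splicing factors 10 rose and 8 fell, led by *Hnrnpa1*, at 264 and 351 CPM in wt and at 715, 783 and 793 CPM in DKO (1.31, adjusted p = 5.53e-05), a gene with many processed copies. Of 30 glycolysis genes 5 fell and 2 rose, and the enolase gene *Eno1* was at 871 and 791 CPM in wt and at 276, 327 and 398 CPM in DKO (-1.32, adjusted p = 7.64e-05), with 72.2% of its windows in another gene.

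Of 22 cholesterol synthesis genes 3 fell and 1 rose, *Nsdhl*, from 19.7 and 19.7 CPM to 51.2, 52.8 and 46.7 CPM (1.35, adjusted p = 2.39e-05). Of 367 zinc finger genes named Zfp 32 rose and 19 fell, again beside 9.91% and 6.84% of all genes. Of 50 ubiquitin-specific peptidases 4 rose, of 15 TGF-beta genes 2 rose, of 14 FGF response genes *Il17rd* (0.61) and *Spred2* (0.89) rose but neither passed without wt 1, and of 42 mitochondrial carriers 1 rose and 1 fell. Of 16 endothelial markers 3 rose and 1 fell, and of 10 neural crest and glia markers *Tfap2b* rose. Of 18 imprinted growth regulators 0 were called by edgeR, by DESeq2 or at an unadjusted p below 0.05.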
